A study of Mus musculus with 12 samples.

Results

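The comparison set untreated hearts of PTCD1 knockout mice (KO) against untreated hearts of wild-type mice (WT), with 3 libraries each, 6 of the 12 libraries of the series. The libraries were chosen by their labels: genotype PTCD1 knockout or wild type, tissue heart, and RNA that served as the control for a chemical treatment of RNA with CMC, a carbodiimide used to find pseudouridine. All nuclear genes were scaled on nuclear reads alone, and the mitochondrial genome was read from the per-base tables of the same 6 libraries. Total RNA was depleted of cytoplasmic ribosomal RNA before sequencing in both groups, so that mitochondrial ribosomal RNA remained. Strain, age and sex of the mice, the number of mice per library and the design of the knockout allele, with any Cre driver, are not stated in the labels. Each p-value below therefore measures the spread between 3 libraries a group, which may be technical.

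PTCD1 is a pentatricopeptide repeat protein that binds RNA inside mitochondria and is needed for the maturation of 16S ribosomal RNA, the RNA of the large mitoribosomal subunit. Heart muscle draws most of its ATP from respiratory complexes whose core subunits are translated on these ribosomes. When mitochondrial translation fails in the heart, known responses include the integrated stress response with its transcription factor ATF4, a return of fetal muscle genes, and remodelling of metabolism.

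Ptcd1 fell in the KO libraries but was not absent. Its level per 1000000 nuclear reads (CPM, scaled by the trimmed mean of M-values) was 8.65, 5.44 and 6.04 CPM in KO and 27.1, 25 and 25.6 CPM in WT, a 3.83-fold fall without overlap (log2 fold change -1.94, SE 0.19, edgeR adjusted p = 1.47e-19). Depth was even, with 10772392 to 11428718 counts per library, of which 2951322 to 3107722 were nuclear, 72.02 to 73.28% were mitochondrial, and 18216 to 18453 nuclear genes had a read. The replicates of a group lay close together: counts varied 1.18 times (KO) and 1.13 times (WT) as much as counting error alone gives, measured as chi-square per degree of freedom. The heart label was borne out by the 14 cardiomyocyte markers, from Myh6 to Tnnt2, which were all detected and tested.

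The groups also differed in RNA from the sex chromosomes. Xist, the X-linked RNA that silences an X chromosome in females, had 1298, 851 and 871 reads in KO and 0, 1 and 0 reads in WT, a ratio of 2739 with a 95% counting interval of 491.2 to 108200. Y-linked genes were read in every library of both groups, as shown by Ddx3y, an RNA helicase gene, with 290, 328 and 341 reads in KO and 417, 379 and 408 reads in WT. Ddx3y (-0.47), Eif2s3y (-0.58), Kdm5d (-0.91) and Uty (-1.03) were all lower in KO (log2 fold changes). Each KO library thus held both Xist and Y-linked RNA, while the WT libraries held Y-linked RNA with at most 1 Xist read. Genotype and this difference in sex-linked RNA cannot be told apart in these libraries. Counts of calls without the sex chromosomes stand beside the first count below.

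**Figure D1:**
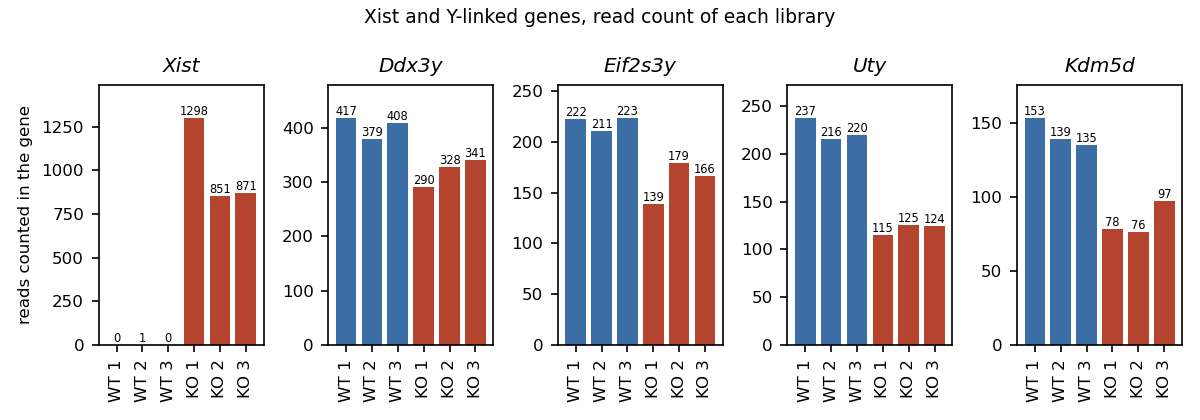
Reads counted in Xist and 4 Y-linked genes in each of the 6 libraries (bars, linear axes starting at 0; blue WT, red KO). Xist ran from 851 to 1298 reads in KO and from 0 to 1 in WT, and all 4 Y-linked genes had reads in every library.

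Most tested nuclear genes changed, in about equal numbers each way. Of 12195 genes tested with the edgeR quasi-likelihood test, 3549 (29.1%) were higher and 3497 (28.7%) lower in KO at a Benjamini-Hochberg adjusted p under 0.05, and 5149 did not pass. A change of at least 1 on the log2 scale was found for 963 genes up (7.9%) and 1006 genes down (8.25%), and the median over all tested genes was -0.0036. On autosomes alone, 3452 genes were higher and 3382 lower. The authors' deposited table calls 2578 nuclear genes higher and 2376 lower, of which 4775 were called here with the same sign and 0 with the opposite sign. These shares are the background for every list below, where "rose" and "fell" mean past this test, and values in parentheses are log2 fold changes of KO minus WT.

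**Figure D2:**
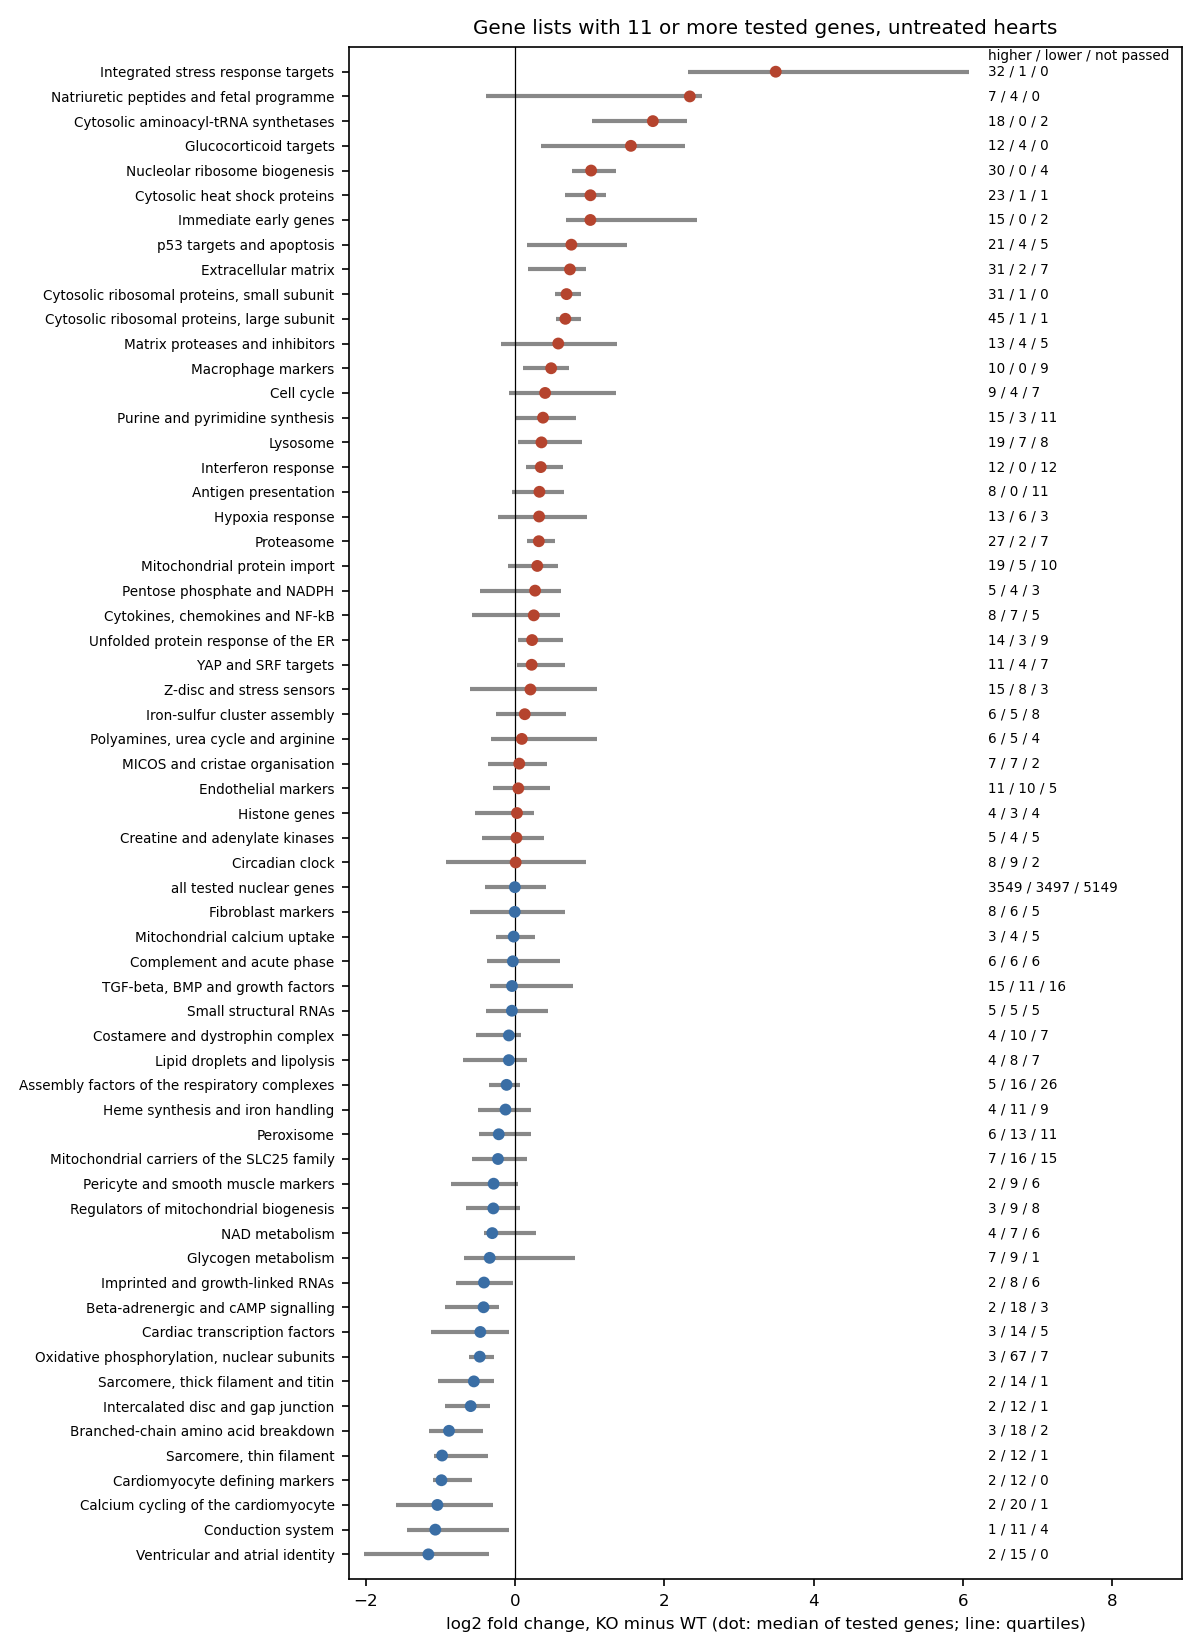
Median (dot) and quartiles (line) of the log2 fold change over the tested genes of each gene list with at least 11 tested genes, with the numbers higher, lower and not passed at the right. Integrated stress response targets (3.49), the natriuretic and fetal list (2.34) and aminoacyl-tRNA synthetases (1.84) lie at the top, and calcium cycling (-1.04), conduction (-1.07) and chamber identity (-1.16) at the bottom.

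Genes for making protein in the cytosol rose. Cytosolic aminoacyl-tRNA synthetases load amino acids onto tRNAs, and of 20 tested genes 18 rose, 0 fell and 2 did not pass, with a median log2 fold change of 1.84. Gars, which loads glycine, had 460.1, 490.1 and 502 CPM in KO and 62.4, 51 and 52.5 CPM in WT, 8.75-fold higher (log2 fold change 3.13, SE 0.06, edgeR adjusted p = 3.51e-137). Sars for serine (2.78), Cars for cysteine (2.45) and Nars for asparagine (2.4) followed, while Farsa (0.11) and Qars (-0.12) did not pass. ATF4 is known to drive many of these genes through a composite element with the letters TGATGNAA. The integrated stress response list had 32 of 33 genes higher, and the part of ATF4 in these rises was not tested. Within 250 bases before the RefSeq start (GRCm38.p6), 3 of 12 synthetase genes with a promoter entry (25%) held these letters on either strand before at least 1 start, against 224 of 9054 tested genes (2.47%) and 3.45% of 32851 single promoters. Among tested genes with a promoter entry that were higher by log2 of at least 1, 29 of 719 (4.03%) held them. The 3 synthetase stretches are shown because they hold the letters before genes that rose together, with the match in capitals on the gene's strand.
Gars, chr6:55037941-55038000, plus strand: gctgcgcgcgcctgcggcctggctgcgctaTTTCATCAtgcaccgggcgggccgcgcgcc
Aars, chr8:111033704-111033763, plus strand: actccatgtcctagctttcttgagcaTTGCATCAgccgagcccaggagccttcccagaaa
Tars, chr15:11399659-11399718, minus strand: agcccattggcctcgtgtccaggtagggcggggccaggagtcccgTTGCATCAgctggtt

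All 3 genes rose: Gars (3.13), Aars (2.08), which loads alanine, and Tars (1.61), which loads threonine. So did 18 of the 20 tested synthetase genes, so the rise does not set these 3 apart. The letters CACGTG, read for clock genes below, also stood in 3 of 12 synthetase genes (25%), against 10.2% of tested genes. The match lies on the opposite strand to the gene in each printed stretch, and it is a match of letters, with no binding measured.

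Ribosome genes moved up by smaller but even steps. Among proteins of the large cytosolic subunit, of 47 tested genes 45 rose, 1 fell and 1 did not pass, with a median log2 fold change of 0.67, and among those of the small subunit 31 of 32 tested genes rose and 1 fell (median 0.69). Rpl3 and Rpl3l encode alternative versions of 1 ribosomal protein, the second being the form of adult striated muscle. Rpl3 was at 313, 317 and 321 CPM in KO and 99.9, 84.4 and 84.9 CPM in WT (log2 fold change 1.82, SE 0.06, edgeR adjusted p = 6.50e-88), and Rpl3l at 4.02, 2.56 and 4.76 CPM in KO and 32.6, 28.5 and 26.9 CPM in WT (log2 fold change -2.94, SE 0.21, edgeR adjusted p = 6.79e-32). They moved in opposite directions, and neither pair of groups overlapped. Ribosomal protein genes have many processed copies in the genome, and the labels do not state how reads shared with those copies were counted. Nucleolar factors that process ribosomal RNA and assemble subunits showed the same direction: of 34 tested genes 30 rose, 0 fell and 4 did not pass, with a median log2 fold change of 1.02. Gnl3 (2.69), a nucleolar GTPase gene, and Rrp12 (2.58) led that list, followed by Nhp2 (2.18), a protein of the RNA-guided pseudouridylation complex of the nucleolus. Eef1a1, the elongation factor that brings loaded tRNA to the ribosome, rose from 946 ± 57.7 CPM in WT to 2881 ± 32.9 CPM in KO (SD, n = 3 each) (1.61).

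Genes for protein folding and turnover rose. In the heat shock list, of 25 tested genes 23 rose, 1 fell and 1 did not pass, with a median log2 fold change of 1.01. The inducible chaperone Hspa1a had 16.7, 15.7 and 17.5 CPM in KO and 1.39, 0.703 and 1.38 CPM in WT (log2 fold change 3.79, SE 0.32, edgeR adjusted p = 1.37e-24), and its near-identical neighbour Hspa1b (3.1) shares sequence with it, so reads may be split between them. Hsp90aa1 (2.65) and Hspb1 (2.42), a small heat shock protein gene, rose as well, while the immunophilin gene Fkbp4 (-0.96) was the 1 that fell. For the unfolded protein response of the endoplasmic reticulum, 14 of 26 tested genes rose and 3 fell (median 0.23). Its sensors Ern1 (1.92) and Atf6 (1.02) rose, whereas Hspa5 (0.22), its main chaperone, moved little. The difference between both lists was not tested. Proteasome subunits rose in 27 of 36 tested genes with a median of 0.32, led by Psmd8 (1.7) of the regulatory particle, and Psme1 (-0.86) and Psme4 (-1.04), activators of the proteasome, fell. Of 34 lysosomal genes 19 rose and 7 fell, among the risers Atp6v1h (2.68), a subunit of the proton pump, and the protease gene Ctsl (1.95).

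Nuclear genes for the mitochondrion did not move as a block. For protein import, of 34 tested genes 19 rose, 5 fell and 10 did not pass, with a median log2 fold change of 0.3. The co-chaperone gene Grpel2 (2.05), the small carrier chaperones Timm8a1 (1.57) and Timm10 (1.17), and Chchd4 (1.26), which oxidises imported proteins, rose, while Dnajc19 (-1.21) and the inner membrane peptidase subunit Immp1l (-0.79) fell. Cristae genes split evenly, with 7 up and 7 down of 16: Chchd6 (1.53) rose, and Immt (-0.33), the core of the MICOS complex, and Opa1 (-0.49), the fusion GTPase of the inner membrane, fell. Carriers of the SLC25 family leaned down, where 7 of 38 tested genes rose and 16 fell (median -0.23). The coenzyme A carrier Slc25a42 (-2.11) fell most, from 49.5 ± 2.62 CPM in WT to 11.5 ± 1.73 CPM in KO (SD, n = 3 each). The ADP/ATP carriers parted, since Slc25a4 (-0.5), the heart form, fell and Slc25a5 (1.72), the form of proliferating tissue, rose. Respiratory subunits fell in 67 of 77 tested genes, and of their assembly factors 5 rose, 16 fell and 26 did not pass of 47; the difference between both lists was not tested. The copper chaperone gene Cox19 (1.46) rose, and the complex I assembly gene Tmem126b (-1.08) fell. Complex IV has subunits with a muscle form and a broadly expressed form: the muscle forms Cox7a1 (-1.69), Cox8b (-1.03) and Cox6a2 (-0.28) fell, the broad forms Cox6a1 (1.27) and Cox8a (1.21) rose, and Cox7a2 (0.05) did not pass.

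Metabolism changed most at single enzymes of several pathways. Nmrk2, a muscle kinase that phosphorylates nicotinamide riboside on the way to NAD, was at 1036, 1059 and 1054 CPM in KO and 7.63, 4.57 and 4.83 CPM in WT, 183-fold higher (log2 fold change 7.52, SE 0.08, edgeR adjusted p = 4.20e-201). Every KO value lay far above every WT value. Of the 17 tested NAD genes, Nmrk2 included, 4 rose and 7 fell, among the latter Nampt (-0.41), the enzyme of the main salvage route, and Nnt (-0.73), which links NADH and NADPH. Breakdown of branched-chain amino acids fell broadly, as of 23 tested genes 3 rose, 18 fell and 2 did not pass, with a median log2 fold change of -0.89. Ppm1k (-2.34), the phosphatase that activates the branched-chain dehydrogenase, and Ivd (-2.19), isovaleryl-CoA dehydrogenase, fell most. Among the 3 that rose were Hibch (0.24) and Bcat1. Bcat1 is the cytosolic transaminase of the pathway's first step and was at 38.9, 51.2 and 49.2 CPM in KO and 0.694, 0.703 and 2.42 CPM in WT (log2 fold change 5.14, SE 0.24, edgeR adjusted p = 5.17e-57). Without WT replicate 2, 1 gene of this list was called higher instead of 3.

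Glycogen genes moved in both directions, 7 up and 9 down of 17. Stbd1 (4.26), which tethers glycogen, Gbe1 (1.93), which branches it, and Gyg (1.75), which primes it, rose, and the phosphorylase kinase subunit Phkg1 (-3.3) and the brain-type phosphorylase Pygb (-1.26) fell. Nucleotide synthesis leaned up: 15 of 29 tested genes rose and 3 fell (median 0.37). The uridine enzymes Uck2 (3.21) and Upp1 (2.76) led it, and Ctps (1.57), which makes CTP, followed. In heme synthesis and iron handling 11 of 24 genes fell and 4 rose. The ones that rose included Hmox1 (3.59), which breaks heme down, and the ferritin light chain gene Ftl1 (2.14), while the iron exporter Slc40a1 (-0.88) and the heme synthesis genes Alad (-0.86) and Fech (-0.81) fell. Of 30 peroxisomal genes 13 fell, led by Abcd2 (-1.53) and Ehhadh (-1.33), both of fatty acid handling, and 6 rose, such as Pex14 (0.93). Among lipid droplet genes the fat-storage factor Fitm1 (-2.24) fell most, within 8 lower and 4 higher genes of 19 (2 higher with DESeq2). Ornithine decarboxylase Odc1 (1.6) and spermidine synthase Srm (1.58), which make polyamines, rose.

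**Figure D3:**
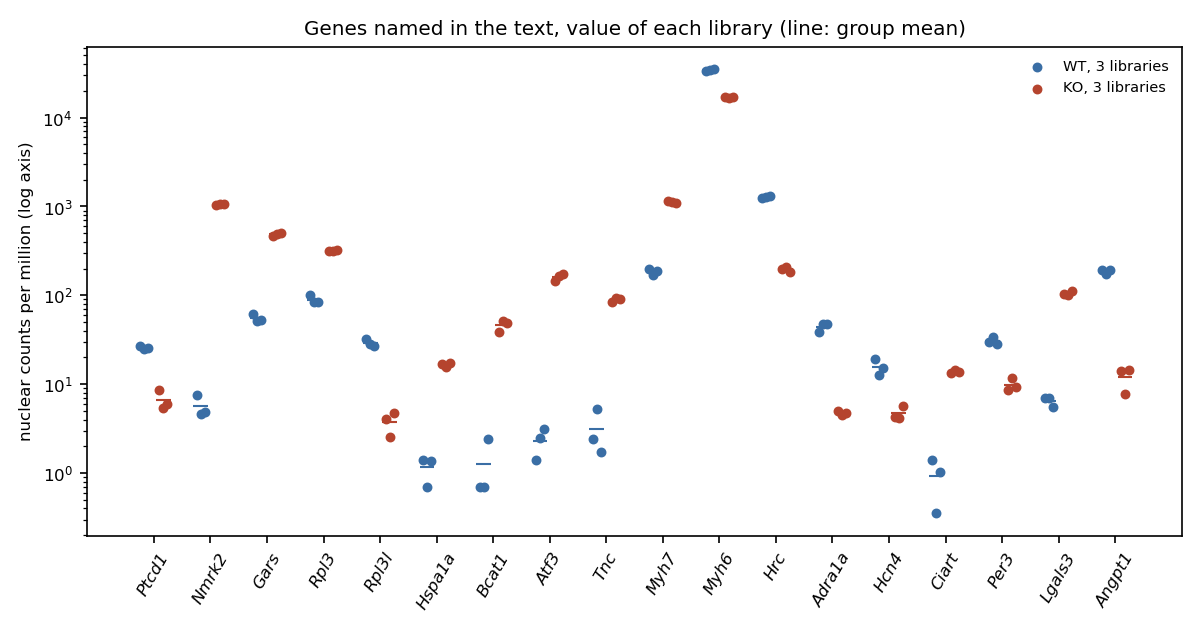
CPM of 18 genes in each library on a log axis (points; the short line is the group mean; blue WT, red KO). No gene shown had overlapping groups: Nmrk2 lies at 1036 to 1059 CPM in KO and 4.57 to 7.63 in WT, and Angpt1, Hrc, Adra1a and Rpl3l lie lower in KO.

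Genes that mark working heart muscle fell as a class. Of the 14 cardiomyocyte markers 12 fell and 2 rose, and their summed level was 135600 to 136400 CPM in KO and 224200 to 227800 CPM in WT. In bulk hearts, fewer cells of a type and less RNA per cell cannot be told apart. Myh6, the adult fast myosin heavy chain, was at 16950, 16660 and 16950 CPM in KO and 33630, 34430 and 35010 CPM in WT (log2 fold change -1.03, SE 0.02, edgeR adjusted p = 3.17e-135), and Myh7, the fetal form next to it, at 1153, 1111 and 1080 CPM in KO and 197, 168 and 189.5 CPM in WT (log2 fold change 2.59, SE 0.04, edgeR adjusted p = 1.23e-156). Both genes are similar in sequence, so shared reads are uncertain. In the thick filament list 14 of 17 genes fell and in the thin filament list 12 of 15. There the skeletal actin gene Acta1 (2.37) rose, and Tnnt2 (-1.04), Actc1 (-1.12) and Tpm1 (-1.05) fell by similar amounts. Ttn, the giant spring of the sarcomere, fell from 126700 ± 1503 CPM in WT to 86390 ± 297 CPM in KO (SD, n = 3 each).

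Stress-linked proteins of the Z-disc, the anchor of the thin filaments, ran opposite, with 15 of 26 up and 8 down. Xirp2 was at 15090, 15010 and 14430 CPM in KO and 2985, 2973 and 2922 CPM in WT (log2 fold change 2.33, SE 0.02, edgeR adjusted p = 2.04e-204). Fhl1 (3.25), the cross-linker Flnc (2.57) and the stretch-responsive Ankrd1 (2.42) also rose. Within the same list Myot (-3.35), Cmya5 (-2.54), Tcap (-1.87) and Klhl40 (-1.64) fell. Cell contacts of the intercalated disc fell in 12 of 15 tested genes, including Ctnna3 (-1.5), the gap junction gene Gja5 (-1.35) and the desmosomal cadherin Dsg2 (-1.05).

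Calcium cycling fell in nearly every gene. Here of 23 tested genes 2 rose, 20 fell and 1 did not pass, with a median log2 fold change of -1.04. Hrc, a calcium-binding protein of the sarcoplasmic reticulum, was at 198, 208 and 184 CPM in KO and 1243, 1294 and 1309 CPM in WT, 6.52-fold lower (log2 fold change -2.7, SE 0.04, edgeR adjusted p = 4.55e-166). The calcium pump Atp2a2 (-1.35), its inhibitors Pln (-2.33) and Sln (-2.75), the release channel Ryr2 (-1.79) and the L-type channel subunit Cacna1c (-1.19) all fell. The 2 genes that rose, S100a1 (0.17) and the sodium-calcium exchanger Slc8a1 (0.09), changed by little, and 1 was called without KO replicate 3 or without WT replicate 1 or 2. Receptors for adrenaline and acetylcholine fell with them: in the adrenergic and cAMP list 2 of 23 tested genes rose and 18 fell (median -0.42). Adra1a was at 4.94, 4.48 and 4.76 CPM in KO and 38.5, 47.5 and 47.3 CPM in WT (log2 fold change -3.22, SE 0.18, edgeR adjusted p = 6.69e-46), and Adra1b (-2.35), Adrb1 (-2.31) and the muscarinic Chrm2 (-2.03) fell too. Prkar1a (1.14), a regulatory subunit of protein kinase A, and the receptor kinase Grk5 (0.95) rose.

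Pacemaker and chamber genes were lower. The conduction list had 11 of 16 genes down and 1 up. Hcn4, the main pacemaker channel gene, was at 4.33, 4.16 and 5.72 CPM in KO and 19.4, 12.7 and 15.2 CPM in WT (log2 fold change -1.73, SE 0.24, edgeR adjusted p = 1.81e-11), and Popdc3 (0.91) was the gene that rose. In the list of ventricular and atrial identity 15 of 17 fell. Atrial genes were among them, Sln (-2.75), Myl7 (-2.03), Kcnj3 (-2.73) and Kcnj5 (-2.02), and so were the ventricular Irx4 (-1.79) and Myl2 (-1.0). Angpt1, a vessel-stabilising ligand, fell most, with 14.2, 7.68 and 14.3 CPM in KO and 193, 175 and 194 CPM in WT (log2 fold change -3.95, SE 0.1, edgeR adjusted p = 2.73e-108). Both Bmp10 (2.19), an atrial ligand, and Nppa (0.88) rose. The labels give the tissue only as heart, and the part of the amount of atrial tissue in these values was not tested. Cardiac transcription factors fell in 14 of 22 genes, with Hopx (-2.08), Irx4 (-1.79), Irx3 (-1.67) and Myocd (-1.6) leading. Gata4 (0.34) rose slightly, while Nkx2-5 (-0.19) and Tbx20 (-0.09) did not pass.

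Hormones of the stressed heart rose, and their receptors fell by smaller amounts. In the natriuretic and fetal list 7 of 11 tested genes rose and 4 fell. Nppb, B-type natriuretic peptide, was at 1243, 1258 and 1208 CPM in KO and 114, 106 and 113 CPM in WT (log2 fold change 3.48, SE 0.04, edgeR adjusted p = 1.33e-180). Ostn, a peptide that slows clearance of natriuretic peptides, had 0 reads in every WT library and stood at 31.5, 38.1 and 34.9 CPM in KO and 0, 0 and 0 CPM in WT, a level at least 100.1-fold higher when WT is set to 3 reads over its libraries, the floor used here. The receptor genes Npr1 (-0.45), Npr2 (-0.41) and Npr3 (-0.36) and the processing enzyme Corin (-0.6) fell. Over all tested nuclear genes the lower quartile was -0.41, and 28.7% fell.

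Genes of rapid and hormonal stress responses rose together. Among immediate early genes, of 17 tested genes 15 rose, 0 fell and 2 did not pass, with a median log2 fold change of 1.01. Atf3, a stress transcription factor and also a target of the integrated stress response, was at 144, 166 and 174 CPM in KO and 1.39, 2.46 and 3.11 CPM in WT (log2 fold change 6.09, SE 0.15, edgeR adjusted p = 3.49e-112), and Nr4a3 (4.95), Myc (3.59) and Egr2 (3.27) followed. Of 16 glucocorticoid targets 12 rose, led by the metallothionein Mt2 (3.64), Cdkn1a (2.84) and Fkbp5 (2.46). The receptors themselves, Nr3c1 (-0.56) and Nr3c2 (-1.48), fell, as did Hsd11b1 (-0.8), which activates the hormone. Several members of that list belong to other stress programmes as well.

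Targets of p53 and apoptosis genes leaned up: 21 of 30 tested genes rose and 4 fell (median 0.75). Cdkn1a, the p21 inhibitor of the cell cycle, rose from 4.53 ± 0.968 CPM in WT to 32.6 ± 3.14 CPM in KO (SD, n = 3 each), and the death agonist Bid (2.55), Gadd45g (2.46) and Phlda3 (2.08) rose with it. Both pro-survival genes Bcl2 (1.5) and Bcl2l1 (1.58) rose too, and the killer gene Bcl2l11 (-1.4) fell. Many cell cycle genes were too low to test. Among 20 tested, 9 rose, such as Mki67 (1.39), Top2a (1.36) and Tpx2 (2.24), and 4 fell, such as Cenpf (-2.76), while 15 others were not tested. Hypoxia-linked genes were mixed, 13 up and 6 down of 22: Slc2a1 (2.86), a glucose transporter, Ero1l (2.64) and Hif1a (1.44) rose, and Egln1 (-0.94) and Ldha (-0.37) fell.

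Clock genes moved in both directions, 8 up and 9 down of 19. The circadian clock runs on BMAL1 and CLOCK, which switch on their own repressors PER and CRY through E-boxes, CACGTG, and the DBP family acts on D-boxes, TTANGTAA. Ciart, a repressor of the loop, was at 13.3, 14.4 and 13.7 CPM in KO and 1.39, 0.352 and 1.04 CPM in WT (log2 fold change 3.83, SE 0.36, edgeR adjusted p = 2.35e-21), and Per1 (2.25), Nfil3 (1.52), Per2 (1.19) and Cry1 (0.9) rose. Arntl (-0.92), which encodes BMAL1, Nr1d1 (-1.14), Dbp (-1.27) and Hlf (-2.19) fell. Per3, with 8.65, 11.8 and 9.21 CPM in KO and 29.8, 33.8 and 28.3 CPM in WT, fell (log2 fold change -1.63, SE 0.17, edgeR adjusted p = 2.18e-18), against the direction of Per1 and Per2. The labels do not state the hour at which hearts were taken, and its part in these values was not tested. Of 16 clock genes with a RefSeq promoter entry 5 (31.2%) held CACGTG in the 250 bases before at least 1 start, against 922 of 9054 tested genes (10.2%) and 6.02% of 32851 single promoters. Among lysosomal genes 9 of 25 (36%) held it. Genes with this E-box moved both ways, as the next stretches show, with the E-box or the D-box of Per3 in capitals.
Ciart, chr3:95882311-95882370, minus strand: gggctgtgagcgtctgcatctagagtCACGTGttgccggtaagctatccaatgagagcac
Per1, chr11:69098757-69098816, plus strand: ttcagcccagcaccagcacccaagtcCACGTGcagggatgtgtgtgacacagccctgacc
Cry1, chr10:85185081-85185140, minus strand: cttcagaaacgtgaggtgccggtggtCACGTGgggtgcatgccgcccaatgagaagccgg
Tef, chr15:81802520-81802579, plus strand: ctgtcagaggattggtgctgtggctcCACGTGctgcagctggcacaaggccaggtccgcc
Per3, chr4:151044837-151044896, minus strand: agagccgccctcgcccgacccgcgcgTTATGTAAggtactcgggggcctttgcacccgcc

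Ciart, Per1 and Cry1 rose, while Tef (-0.71), a member of the DBP family, fell with the same 6 letters before 2 of its starts, of which 1 is shown. The E-box is a match of letters, and D-box letters stood in 2.06% of all promoters.

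Matrix genes rose broadly. Among extracellular matrix genes, of 40 tested genes 31 rose, 2 fell and 7 did not pass, with a median log2 fold change of 0.73. Tnc, tenascin C, which is scarce in the healthy adult heart, was at 84.1, 92.5 and 90.2 CPM in KO and 2.43, 5.28 and 1.73 CPM in WT, 28-fold higher (log2 fold change 4.81, SE 0.17, edgeR adjusted p = 3.67e-81). Thbs1 (2.8) and the collagen Col8a1 (2.32) rose strongly, and the main fibrillar collagens Col1a1 (0.64) and Col3a1 (0.37) by less. Dcn (-0.57) and Thbs2 (-0.7) fell. In the list of matrix proteases and their inhibitors 13 of 22 rose, among them Timp1 (3.19), an inhibitor of metalloproteases. Growth factors were mixed, 15 up and 11 down of 42. Ccn2 (3.63), Tgfb2 (2.63) and the activin subunit Inhba (2.59) rose, Egf (-3.05) and Fgf2 (-1.36) fell.

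Markers of the other cells of the heart moved in both directions, for several types within 1 list. Fibroblast markers had 8 up and 6 down of 19. The matrix genes Cilp (2.42) and Postn (1.68) and the factor Meox1 (1.83) rose, and Pdgfra (-0.64), Dpt (-0.63) and Gsn (-0.9), which mark resting fibroblasts, fell. Macrophage markers summed to 751 to 775 CPM in KO and 513 to 525 CPM in WT, with 10 up and 0 down of 19. The largest rises were of Lgals3, a lectin, at 103, 101 and 110.5 CPM in KO and 6.93, 7.03 and 5.52 CPM in WT (log2 fold change 4.0, SE 0.13, edgeR adjusted p = 7.61e-84), and of Gpnmb (3.4), a lysosomal glycoprotein gene, both also made by other stressed cells. The defining macrophage genes Csf1r (0.19), Adgre1 (0.13), Lyz2 (0.01), Mrc1 (0.1) and Cd163 (0.12) did not pass. Lymphocyte, neutrophil, mast cell and platelet markers were too low to test except for Ptprc (0.12), Kit (-0.29) and Pf4 (-0.36), none of which passed.

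Endothelial markers had 11 up and 10 down of 26, with Ednrb (1.7) and Sox17 (1.36) up, Apln (-1.16) down, and Cdh5 (0.01) and Vwf (0.02) not passing. Pericyte and smooth muscle markers fell in 9 of 17 genes, among them Abcc9 (-1.27) and Myh11 (-0.68), and Pln (-2.33), which cardiomyocytes also express. Adipocyte markers fell in 5 of 8, epicardial markers in 5 of 7 and erythroid markers in 6 of 8, or 2 of 8 with DESeq2. Of these, Adipoq (-1.22), Upk3b (-1.4) and the beta-globin Hbb-bs (-0.42) are examples. The part of cell composition in the gene lists above was not tested.

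Immune genes rose in part, mostly by small amounts. Interferon-response genes had 12 of 24 up and 0 down, led by Zbp1 (2.48), a nucleic acid sensor, and Gbp2 (1.91), with Ifit1 (0.25) and Ifit3 (0.34) not passing. With antigen presentation 8 of 19 rose, such as Nlrc5 (1.45) and B2m (0.43). DESeq2, a second count test, called 7 and 5 genes of these lists higher. Complement genes were even, 6 up and 6 down. Lcn2, an iron-binding acute phase protein, rose from 2.2 ± 0.408 CPM in WT to 20.9 ± 1.66 CPM in KO (SD, n = 3 each). Of the cytokine list, the receptor Tnfrsf12a (3.05) rose and the cytokine Il15 (-2.11) fell.

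Some of the largest changes lay outside these lists. The rises included Vmn2r3, a vomeronasal receptor gene, at 97, 96.3 and 106 CPM in KO and 0, 0 and 0 CPM in WT, at least 286.6-fold higher against the same floor. Fam227b also had 0 reads in WT and was at least 64.69-fold higher, at 19.2, 24.6 and 23.8 CPM in KO and 0, 0 and 0 CPM in WT. For Acox2, a peroxisomal oxidase of bile acid and branched fatty acid breakdown, 150, 177 and 176 reads in KO and 1, 1 and 1 reads in WT gave a ratio of 152.1 with a 95% counting interval of 51.73 to 739.8. Next in size were Avil (5.96), an actin-binding protein, Ptprt (5.75), a receptor phosphatase, Bex1 (5.45), Tfcp2l1 (5.4), a transcription factor, Tenm4 (5.39), a synaptic adhesion protein, Dlg2 (5.1), a synaptic scaffold, Plcxd2 (4.74), Maoa (4.6), which breaks down catecholamines, and Adamts20 (4.37), a matrix protease. Bex1, for example, was at 19.2, 22.4 and 24.8 CPM in KO and 0.347, 0.703 and 0.345 CPM in WT, with no overlap.

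The falls outside the lists were led by Efnb3 (-4.84), a membrane-bound ephrin ligand, at 0.618, 0.64 and 2.54 CPM in KO and 31.2, 37.3 and 43.5 CPM in WT, and Ky (-4.64), a muscle protein named for kyphoscoliosis, at 0.927, 0.96 and 1.27 CPM in KO and 30.5, 27.4 and 23.5 CPM in WT. Again no KO value reached a WT value. Gpr22 (-4.57), an orphan receptor of heart and brain, the kinases Sbk3 (-4.19) and Sbk2 (-3.67), and Smco1 (-3.83) fell, as did the lipid esterase Ces1d (-3.78), the skeletal sodium channel Scn4a (-3.61) and the splicing factor Rbfox1 (-3.5). Lrtm1 (-3.48), Asb15 (-3.46) and the integrin Itgb6 (-3.33) completed the 12 largest falls. By share of reads, which depends on transcript length, the largest gains in CPM were of Xirp2, Ankrd1, Flnc, Eef1a1, Acta1, Hspa8, Nppa and Nppb. The largest losses were of Ttn, Myh6, Mb, Tpm1, Atp2a2, Pln, Actc1 and Rn7sk, the small nuclear RNA that restrains transcription elongation. The 10 most read nuclear genes took 17.4 to 17.53% of nuclear reads in the KO libraries and 23.68 to 23.8% in WT. Chromosome by chromosome, the share of tested genes that rose ran from 23.2% on chromosome 9 to 33.6% on chromosome 15. Within 5 Mb of Ptcd1, 28 of 74 tested genes rose and 16 fell.

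Long non-coding and TEC classes leaned down, while the snoRNA and scaRNA class did not (12 up and 5 down of 31). Of 105 lincRNAs 59 fell and 17 rose (median -0.58), of 65 antisense RNAs 40 fell and 9 rose (-0.86), and of 333 loci in the provisional TEC class of GENCODE 152 fell and 24 rose (-0.54). Protein-coding genes were balanced, with 3366 up and 3126 down of 11231 (0.01), and processed pseudogenes leaned up, with 77 up and 27 down of 201 (0.36). Only the TEC class and the sense-intronic class (3 up and 15 down of 35) were compared with host genes. Of their rows, 314 lay inside 1 tested protein-coding gene on its strand. Of these rows 140 fell and 26 rose, and of their hosts 164 fell and 65 rose; row and host both fell in 122 pairs. Reads of unspliced host RNA and of the row itself cannot be told apart there, and the labels do not state if counting used the strand. Individual long non-coding RNAs with the largest rises after Xist were Gm44317, Gm32856, 2410006H16Rik and Pvt1 (2.69), a neighbour of Myc, and the largest falls were of Prr33, Gm10435, Gm31013, Gm13479 and D830024N08Rik. The imprinted H19 (-1.31) fell and the imprinted growth adaptor Grb10 (1.17) rose.

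**Figure D4:**
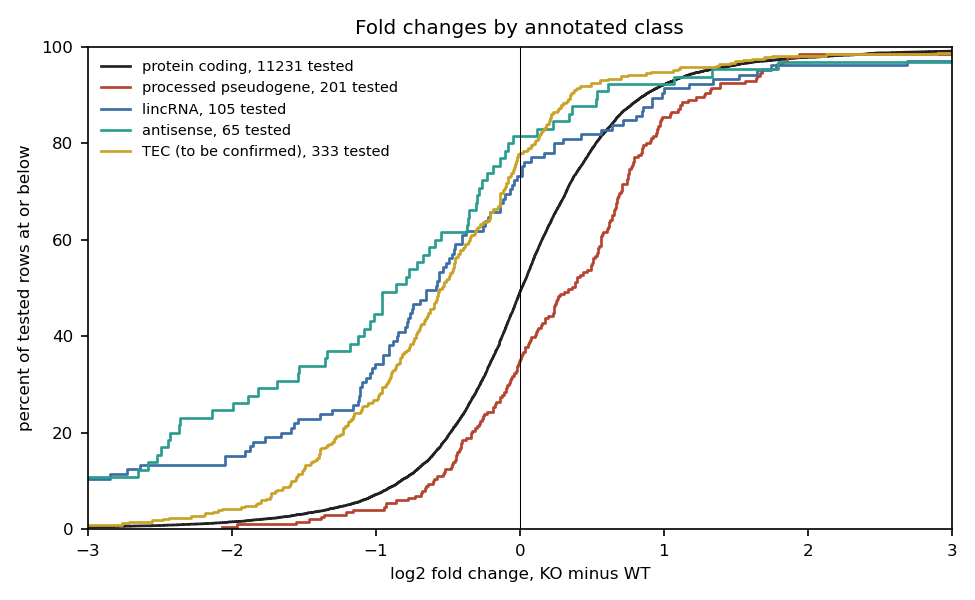
Cumulative share (percent) of tested rows at or below each log2 fold change for 5 annotated classes; rows beyond 3 either way lie outside the axis. The lincRNA, antisense and TEC curves lie left of protein-coding genes at the median, and processed pseudogenes lie right of them.

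On the mitochondrial genome, 16S ribosomal RNA fell and most other RNAs rose. Depth was taken per gene from the per-base tables, scaled by nuclear reads and tested with limma over 37 genes and the control region: 30 were higher (78.9%), 7 lower (18.4%) and mt-Tk did not pass. Depth of mt-Rnr2, the 16S RNA that PTCD1 serves, was 21860, 23130 and 22390 in KO and 156200, 152800 and 150600 in WT (log2 difference -2.77, SE 0.03, limma adjusted p = 1.75e-09), per 1000000 scaled nuclear reads. The fall was -2.60, -2.72, -2.92 and -2.89 over 4 equal stretches from the 5′ end. The neighbouring 12S RNA mt-Rnr1 was at 99300, 102000 and 100400 in KO and 26870, 26360 and 26430 in WT (log2 difference 1.92, SE 0.02, limma adjusted p = 1.96e-09). Depth in these tables ends at 1000000, and leaving out the 109 positions at 900000 or more, 71 of mt-Rnr2 and 38 of mt-Rnr1, gave -2.77 and 1.94. Largest rises were of the tRNA genes mt-Tf (2.5) and mt-Tl1 (2.44), which flank the ribosomal RNA genes, and of the complex I genes mt-Nd1 (2.02) and mt-Nd2 (1.98). Besides mt-Rnr2 the genes that fell were mt-Nd6 (-0.43), mt-Te (-0.51), mt-Td (-0.7) and the neighbours mt-Th (-0.78), mt-Ts2 (-0.74) and mt-Tl2 (-0.42), all but mt-Nd6 tRNA genes. Depth does not separate the strands, and mt-Nd6 lies on the minus strand. In the deposited gene counts mt-Nd6 had 10012, 10325 and 10038 reads in KO and 23149, 23240 and 23955 reads in WT, with means of 3195 and 8156 CPM, a larger gap than in depth. In libraries of this kind mature tRNAs are read poorly, and depth over them includes precursors.

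**Figure D5:**
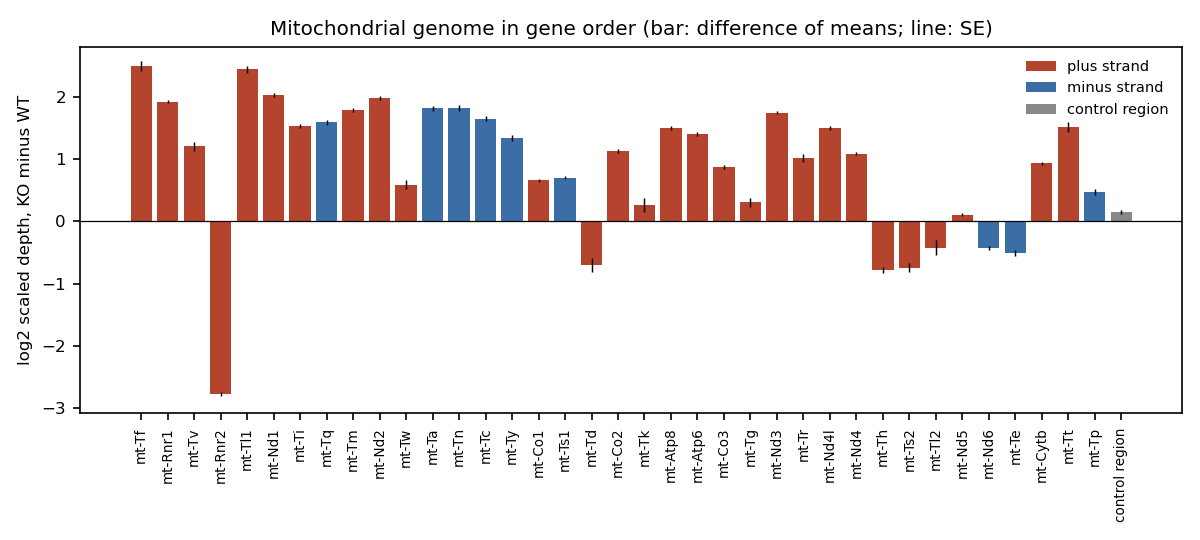
Difference in log2 scaled depth, KO minus WT, for 37 mitochondrial genes and the control region in genome order (bars from 0; line: SE; red plus strand, blue minus strand, grey control region). mt-Rnr2 stands alone at -2.77, and 6 smaller bars lie below 0.

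Borders of neighbouring genes were read as mean per-base depth over 10 bases, relative to the geometric mean depth of both genes. Reads were not required to span the border, and depth does not separate the strands. The measure is therefore not a count of uncut precursors. Of 37 borders 8 were relatively higher (21.6%) and 16 lower (43.2%) in KO. The border of 16S RNA with mt-Tl1 was at 0.302, 0.316 and 0.302 in KO and 0.0442, 0.0449 and 0.0459 in WT (log2 difference 2.77, SE 0.03, limma adjusted p = 6.78e-09). This measure divides by the geometric mean depth of mt-Rnr2 and mt-Tl1. The fall of mt-Rnr2 (-2.77) raises it by construction, and the rise of mt-Tl1 (2.44) lowers it. Both enter with equal weight and largely offset each other, so most of the 2.77 is a rise of scaled depth at the border itself. Some of the 10 bases lie inside mt-Tl1, which rose. The border between mt-Atp6 and mt-Co3, which has no tRNA between the genes, went the other way, at 0.0899, 0.0905 and 0.0898 in KO and 0.376, 0.388 and 0.377 in WT (log2 difference -2.08, SE 0.02, limma adjusted p = 6.78e-09). Both genes were deeper in KO, and depth at their border fell relative to them. The borders of mt-Te with mt-Cytb (-0.88) and of mt-Tg with mt-Nd3 (-0.75) were relatively lower, and that of mt-Tv with mt-Rnr2 (1.43) higher. The value of 1.43 also depends on its divisor, which the fall of mt-Rnr2 (-2.77) shrinks and the rise of mt-Tv (1.2) enlarges. On the log2 scale the divisor moved by the mean of these changes, which is negative, so part of the 1.43 comes from it. The borders with the largest changes each way are shown, from the reference bases in the deposited per-base tables (mm10), with the 10 bases counted as the border in capitals.
mt-Rnr2 to mt-Tl1, chrM:2651-2700, plus strand: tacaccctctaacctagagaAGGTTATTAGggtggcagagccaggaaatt
mt-Atp6 to mt-Co3, chrM:8583-8632, plus strand: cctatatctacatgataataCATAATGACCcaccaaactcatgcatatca

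Mismatch shares passed the test at few positions. Of 19 positions with a mean share of at least 1%, 1 was higher (5.26%) and 1 lower (5.26%) in KO. Position 4949 of mt-Nd2 (T4949G, reference base first, counted from base 1 of the mitochondrial genome) had 2.55, 2.35 and 2.27% in KO and 3.4, 3.42 and 4.05% in WT, at depths of 263 to 511 (limma adjusted p = 0.0262). With any library but WT replicate 1 left out, 0 positions were called. The call at T9461C carries no difference in share, since all libraries were at 100% and the value rests on the 0.5 reads added before the ratio. C4528A and T4891C stood at 99.95% or more in every library of both groups.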

How the data were processed

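The submitters' processing notes name mm10 with the tools DESeq2 1.16.1, featureCounts 1.5.1, SAMtools 1.5 and HISAT2 2.0.5, without their settings. The deposited gene table holds raw read counts per gene. The authors' deposited comparison holds a log2 fold change and an adjusted p-value per gene. The deposited per-base tables hold read counts by base over the mitochondrial genome, per the file headers, so depth is a count of reads.

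Symbols came from GENCODE M21 (51682 of 51875 nuclear rows had one, 193 had none). Nuclear rows of 6 libraries were filtered with filterByExpr, scaled by TMM without mitochondrial rows, and tested with the quasi-likelihood test of edgeR 4.0.16 in R 4.3.3, with Benjamini-Hochberg adjustment at 0.05; this step and the limma step were tested on simulated data. Mitochondrial depth, borders and mismatch odds (0.5 added) were tested with limma 3.58.1. Depth limits precision: a group without a read was set to 3 counts in all (the floor), and 95% counting intervals cover counting error only. Alternatives were DESeq2 1.42.0, other scalings and filters, a replicate block and leaving out each library.

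The comparison, gene lists and rule for named genes were chosen with earlier results of these data known. The rule took Ptcd1; up to 4 called members of each list with the largest change and a mean of at least 5 CPM, or up to 2 abundant ones; the 12 largest rises and falls outside lists at 10 CPM or more; the 8 largest gains and losses in CPM; 5 long non-coding RNAs each way; the 4 largest mitochondrial changes each way; and the 5 borders and 5 positions with the smallest p. Further list members named beside these, the Y-linked genes and the count on autosomes were chosen after their values were seen. Some genes that the rule took are not reported here.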

Additional observations from a re-analysis of the deposited data

How the results depend on the processing

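Nuclear depth (2951322 to 3107722 counts) limits genes of a few CPM. All 4 nuclear counts kept within 1.5 times their value under every alternative run, and no result reversed. DESeq2 called the fewest, 2695 genes higher and 2647 lower of 12195. The labels do not state whether replicate numbers pair the samples. Correlations of deviations between same-numbered libraries were -0.012, -0.0097 and -0.014, and 0 libraries correlated best with their own number. Replicates varied little more than counting error (1.18 times in KO, 1.13 times in WT), so such small correlations cannot exclude a pairing. With a replicate block 3538 genes were higher and 3480 lower. The block moved the borders higher in KO from 8 to 5; the cause was not tested. The 1 mismatch position higher and the 1 lower each went to 0 with the block and with a stricter minimum depth, and the lower 1 also with a share of at least 5%; leaving out 1 library gave 0 to 1 for each. Of 144 list counts, 19 moved under DESeq2 (fewer genes in most), 3 without the filter and 2 to 7 when a library was left out. Of 312 named genes, 10 no longer passed under DESeq2, at most 5 when 1 library was left out, and 0 changed direction; TMM over all genes and DESeq2 size factors changed 0 calls. The genes lost were low or small changes, such as C7 (-0.69), Mmrn1 (-0.34) and Slc16a7 (-0.52).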

Other observations

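Further gene groups, given as values. Regulators of mitochondrial biogenesis had 3 up and 9 down of 20, with the thyroid hormone receptor Thrb (-1.11) and the coactivator Ppargc1b (-0.92) down and Ppard (0.82) up. The kinase and adenylate shuttle was even, 5 up and 4 down of 14: Nme1 (1.79) rose, Ak1 (-0.89) and muscle creatine kinase Ckm (-0.64) fell, and 3 genes instead of 5 were up without KO replicate 1. For iron-sulfur cluster assembly 6 of 19 tested genes rose and 5 fell (median 0.13), with Lyrm4 (0.91) up and the cysteine desulfurase Nfs1 (-0.7) down. Mitochondrial calcium uptake had 3 up and 4 down of 12, and Mcu itself (-0.14) did not pass; without KO replicate 3 or WT replicate 3, 2 were down. Of the ketone enzymes Acat1 (-1.4) fell and Bdh1 (0.88) rose. In the pentose phosphate list Taldo1 (0.83) and G6pdx (0.74) rose and Tkt (-0.6) fell. In the hexosamine pathway 5 of 8 rose, led by Gnpnat1 (1.84). Costamere genes had 10 of 21 down, among them Itgb1bp2 (-1.92), and Sntb1 (1.25) up. Targets of YAP and SRF had 11 of 22 up. Of 11 histone genes 4 rose and 3 fell, with Hist2h2be (-2.55) lowest. Small structural RNAs were even, 5 up and 5 down of 15, and the small nucleolar RNA Snord118 (1.05) rose. Of the snoRNA and scaRNA class 12 rose and 5 fell of 31.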
